A study of Schizosaccharomyces pombe with 4 samples.

Results

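The 9 genes described here encode enzymes with which fission yeast (Schizosaccharomyces pombe) removes reactive oxygen species, keeps thiols reduced or makes an osmolyte: sod1, tpx1, trr1, gpx1, ctt1, gst1, gst2, gst3 and gpd1. They were taken by name, and the span of each came from the public annotation of the ASM294v3 assembly, laid over the probe positions of the arrays. All 9 were found, among 5113 coding genes annotated, 4339 on coordinates that matched the reference and 4280 with a value. The window of a gene is its coding span plus 500 bp on both sides.

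The arrays came from a study of Cdk11, a kinase that works with cyclin L, and of Mediator, which links transcription factors to RNA polymerase II. Chromatin was immunoprecipitated from a wild-type strain that carries HA-tagged Cdk11, with the monoclonal antibody HA.11 (clone 16B12), and hybridised to tiling arrays against input DNA of the same strain. Cells grew at 32 °C in YES, a rich medium, to mid-log phase and were fixed in 3% formaldehyde for 10 min, and the labels name no oxidative or osmotic stress. The 4 arrays form 1 group, in which replicates 1 and 3 are hybridisations of the first immunoprecipitation and replicates 2 and 4 of the second. Duplicates were averaged, so n = 2, and p-values measure only the spread between these immunoprecipitations, pooled in part or in full over genes. No untagged strain or mock precipitation was analysed here, and the dyes were not swapped between arrays. A value averages over a culture, so fewer cells with the protein at a gene and less protein there per cell cannot be told apart.

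Superoxide dismutase turns superoxide into hydrogen peroxide, which catalase, peroxiredoxin and glutathione peroxidase then break down, and thioredoxin reductase returns electrons to the thiol-based enzymes. Glycerol-3-phosphate dehydrogenase starts the synthesis of glycerol, the osmolyte that fission yeast accumulates under high salt or sugar. Many of these genes are induced by the stress-activated kinase Sty1 with the factor Atf1, or by the factor Pap1, and the peroxiredoxin Tpx1 also passes the peroxide signal to both branches.

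Values are given as log2(Cy3/Cy5) against the median probe of the array, so 0 is that probe and not an absence of the protein. Below 0 the Cy5 signal is the higher, above 0 the Cy3 signal. By the labels the immunoprecipitate carries Cy3 and the input Cy5, but the ratios deposited by the authors run the other way, as Cy5 over Cy3, so the direction of immunoprecipitate over input is not settled and genes are described by channel. If Cy3 is the immunoprecipitate, values under 0 mean depletion, and if Cy5 is, enrichment. A gene was called at an adjusted p of 0.05 in limma's moderated test against 0 over all coding genes (two-sided, Benjamini-Hochberg).

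The promoters of sod1, tpx1, gpd1 and gst2 are shown because these 4 genes were called in their window or coding span, and because the arrays hold probes on both sides of their start codons. Each is the 300 bases before the annotated transcript start in RefSeq's annotation of ASM294v3, written 5′ to 3′ on the coding strand. The upstream probe of gpd1 lies in its transcript and not in these bases. Capitals mark matches to 3 motifs searched on both strands. These were TGACGT, the core of sites bound by Atf1-type factors, TTACGTAA, a palindrome bound by Pap1, and TTAGTCA, a related site of leucine zipper factors.
sod1 (minus strand, chrI:1003601-1003900): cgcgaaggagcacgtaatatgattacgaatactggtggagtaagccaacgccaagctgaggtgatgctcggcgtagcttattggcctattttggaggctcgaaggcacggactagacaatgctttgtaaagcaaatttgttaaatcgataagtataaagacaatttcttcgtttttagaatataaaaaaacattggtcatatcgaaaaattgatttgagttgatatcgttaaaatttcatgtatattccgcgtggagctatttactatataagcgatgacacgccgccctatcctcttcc
tpx1 (minus strand, chrIII:2085720-2086019): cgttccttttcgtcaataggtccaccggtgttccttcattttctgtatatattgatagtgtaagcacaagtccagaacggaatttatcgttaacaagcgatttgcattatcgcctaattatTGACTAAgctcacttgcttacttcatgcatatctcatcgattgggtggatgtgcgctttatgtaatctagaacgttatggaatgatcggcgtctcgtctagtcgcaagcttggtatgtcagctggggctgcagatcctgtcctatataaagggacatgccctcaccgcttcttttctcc
gpd1 (plus strand, chrII:4035266-4035565): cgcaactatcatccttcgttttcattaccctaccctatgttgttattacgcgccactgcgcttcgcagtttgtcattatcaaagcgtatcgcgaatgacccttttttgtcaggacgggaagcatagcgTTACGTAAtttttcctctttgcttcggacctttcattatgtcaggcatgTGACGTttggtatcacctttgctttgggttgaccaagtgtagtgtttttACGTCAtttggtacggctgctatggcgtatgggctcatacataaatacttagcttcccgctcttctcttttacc
gst2 (minus strand, chrIII:2296106-2296405): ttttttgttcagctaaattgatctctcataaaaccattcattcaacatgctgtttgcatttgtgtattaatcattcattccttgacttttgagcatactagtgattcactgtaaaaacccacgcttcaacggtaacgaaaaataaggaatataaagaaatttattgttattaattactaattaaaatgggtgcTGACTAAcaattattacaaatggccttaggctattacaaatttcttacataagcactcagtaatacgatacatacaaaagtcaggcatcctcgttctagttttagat

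TGACGT was found before 3 of the 9 genes, gpd1, ctt1 and gst3, and before 6.03% of 5112 promoters of the same length. In gpd1 its matches began 123 and 74 bp before the transcript start, with TTACGTAA 172 bp before it. TTACGTAA, present in 0.548% of promoters, also lay before gpx1, and TTAGTCA, present in 4.81%, lay before tpx1 at 179 bp and gst2 at 107 bp. No match overlapped another. The 300 bases before sod1, gst1 and trr1 held none of the 3 motifs. A match is a description of letters, and the binding of Atf1 and Pap1 was not measured on these arrays.

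Before any filter each array held 42707 genomic probes, of which between 1.00% (replicate 4) and 16.3% (replicate 1) were left out as poor spots. Median signals were 2889 to 4862 in Cy5 and 5097 to 6341 in Cy3. Over all windows the arrays correlated pairwise at r = 0.35 to 0.49, with 0.37 and 0.48 for the duplicates of an immunoprecipitation and 0.35 to 0.49 for arrays of different ones. On every array brighter spots were higher in Cy5, with r between the log ratio and brightness of -0.65, -0.48, -0.56 and -0.63 on replicates 1 to 4. Where removing this relation by a loess fit changed the call or sign of a window or part value of the 9 genes, the loess value is given. The 9 windows held 65 probes, none saturated on any array, and 55 were above local background in both channels on all 4.

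Of the 9 windows, those of sod1 and gpd1 were called higher in Cy5, that of gst2 in Cy3. Over all 4280 windows 6.8% were called in the Cy5 direction and 1.43% in the Cy3 direction. The median of the 9 windows was -0.26, against -0.01 over all windows, and the 9 ran from -1.51 to 0.64. Within the order of the genes, the values of sod1 and gpd1, and those of gpd1 and the next gene trr1, did not overlap between immunoprecipitations. Each further pair of neighbours in the order (trr1, gst3, tpx1, gpx1, gst1, ctt1, gst2) overlapped. Overlap was judged on the 2 immunoprecipitation means of each gene, and single arrays did overlap in the first 2 pairs too. For example, gpd1 was at -1.41 on replicate 2 and sod1 at -1.11 on replicate 1, and on replicate 1 trr1 was at -0.79 and gpd1 at -0.77. How often neighbours overlap over all genes was not counted. In this fit limma gave all genes 1 shared variance, so every window has a standard error of 0.17. A window's own SD between immunoprecipitations, such as 0.54 at gst2, therefore does not enter its p-value.

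**Figure D1:**
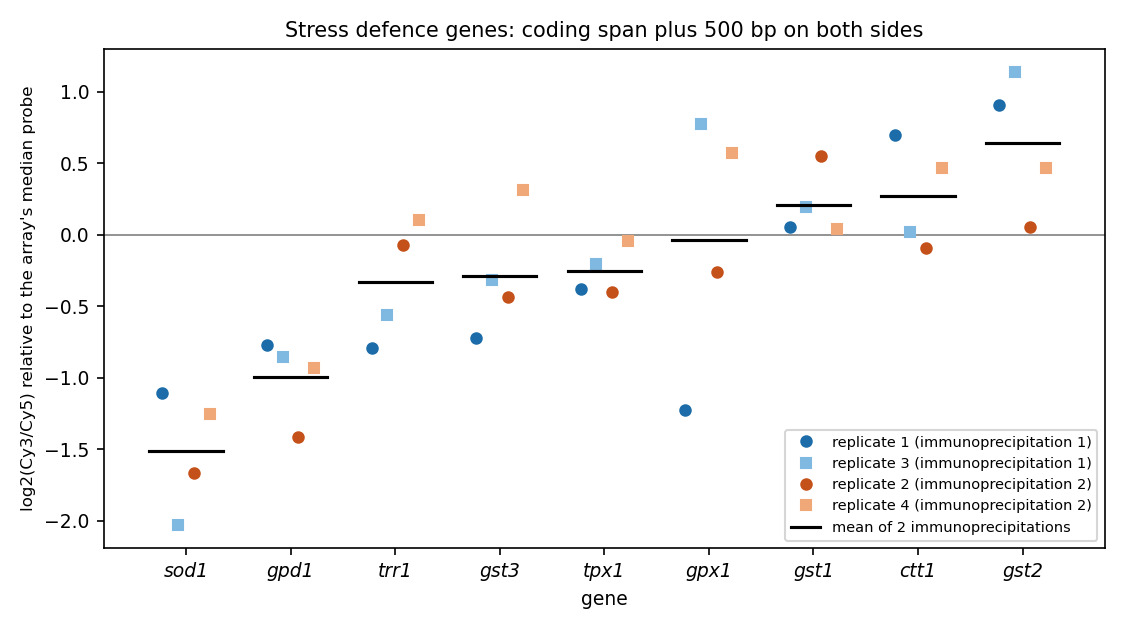
Window values (coding span plus 500 bp on both sides) of the 9 genes as log2(Cy3/Cy5) relative to the median probe, ordered by their mean. Points are the 4 arrays, coloured by immunoprecipitation, and bars are the means of the 2 immunoprecipitations. All points of sod1 and gpd1 lie at or below -0.77, those of gst2 between 0.05 and 1.14, and the points of gpx1 run from -1.22 to 0.77.

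The gene sod1 (SPAC821.10C, chrI:1002999-1003463, minus strand, 1 coding exon) encodes the copper-zinc superoxide dismutase, the cytosolic enzyme at the head of the pathway. Its window value was -1.11, -1.67, -2.03 and -1.25 on replicates 1 to 4. Every array was thus well below 0, and the immunoprecipitations differed little, at -1.57 and -1.46. The mean of -1.51 ± 0.08 (SD, n = 2) is 2.86-fold higher in Cy5 (limma, adjusted p = 8.12e-16), and it ranked 19 of 4280 windows from the Cy5 end. Over the coding span, with 2 probes, the values were -1.43, -1.67, -2.21 and -1.24, with a mean of -1.64 ± 0.26 (3.11-fold, adjusted p = 6.60e-06). After the loess fit the window was at -1.10 and the coding span at -0.89, nearer to 0 but both still called.

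Low values reached across the whole sod1 locus. Downstream of the stop codon 3 probes gave -1.53, -1.64, -1.98 and -1.25, a mean of -1.60 ± 0.22 (adjusted p = 0.0328), and the call was lost without replicate 3 (-1.49), after normexp background correction (-2.15) and with dim probes left out (-1.58). The region upstream of the start codon, which holds the promoter printed above, gave -0.16, -1.70, -1.92 and -1.27. Replicate 1 stood apart there, and the mean of -1.26 ± 0.32 did not pass (adjusted p = 0.198), whereas without that array it was -1.70 and passed (the adjusted p ran from 0.00422 to 0.743 over its alternatives). Single probes were lowest at 307 bp past the start codon (-2.05, 4.14-fold, adjusted p = 7.01e-05) and at 534 bp, just past the stop codon (-1.94). The probe at -496 bp from the start codon was called too, at -1.59. The next annotated coding genes, eng1 at 995 bp and pro1 at 2930 bp, held none of these probes.

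The gene gpd1 (SPBC215.05, chrII:4035814-4036971, plus strand, 1 coding exon) encodes the glycerol-3-phosphate dehydrogenase that fission yeast uses for osmotic adaptation. Its window value was -0.77, -1.41, -0.86 and -0.93 on replicates 1 to 4, below 0 on each array and lowest on replicate 2. The mean was -0.99 ± 0.25 (SD, n = 2), or 1.99-fold higher in Cy5 (limma, adjusted p = 6.30e-07). The call was lost without replicate 3, at -0.97 (adjusted p = 0.0587, against at most 0.0389 under every other alternative run), and after the loess fit the value was -0.64. The coding span, with 4 probes, gave -0.92, -1.71, -1.25 and -1.04, a mean of -1.23 ± 0.20 (2.34-fold, adjusted p = 0.000211). This call too was lost without replicate 3, at -1.14 (limma, adjusted p = 0.0716), the highest of a range that began at 2.21e-06.

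Along gpd1 the probes deeper in the coding span lay lower than the 1 upstream probe. The 3 probes at 241, 575 and 920 bp past the start codon were at -1.60, -1.21 and -1.17, and the first of them was called (adjusted p = 0.00553). The upstream probe, at -178 bp from the start codon, was missing on replicate 1 and gave -1.18, -0.08 and -0.02 on replicates 2, 3 and 4. It lies inside the annotated transcript, which starts 248 bp before the start codon. The window thus holds no probe in the promoter printed above. Downstream the mean of 2 probes was -0.85 ± 0.40 (adjusted p = 0.267), and after the loess fit it was 0.07. The probe just inside the start codon was measured on replicates 1 and 4 alone, where it was -1.35 and 0.58. It was above local background in both channels on only 1 array.

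The gene tpx1 (SPCC576.03C, chrIII:2085036-2085614, minus strand, 1 coding exon) encodes the main cytosolic peroxiredoxin, which uses thioredoxin to reduce hydrogen peroxide. Its coding span, with 2 probes, was at -2.52, -0.97, -0.99 and -0.86 on replicates 1 to 4. Replicate 1 was far lower than the other arrays, which lay close together. The mean of -1.33 ± 0.59 (SD, n = 2) was called higher in Cy5 (2.52-fold, limma, adjusted p = 0.000211), and without replicate 1 it was -0.95 and still passed. After the loess fit, however, the coding span was at -0.22 and no longer passed (the adjusted p ran from 1.62e-06 to 0.458 over its alternatives). Its probes are among the brightest of the genome, with 98.9% of coding spans dimmer.

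The region before tpx1 ran the other way. Its 3 upstream probes averaged 1.00, -0.43, 0.58 and 1.16 on replicates 1 to 4, so that only replicate 2 was below 0. That mean of 0.58 ± 0.30 did not pass (adjusted p = 0.505). The farthest probe, at -482 bp from the start codon, was at 1.63, 1.00 and 1.41 on replicates 1, 3 and 4, missing on replicate 2, and was called higher in Cy3 (1.36, adjusted p = 0.0321). The upstream value minus the coding span value was 3.52, 0.54, 1.56 and 2.02, positive on each array. Its mean of 1.91 ± 0.89 ranked 3725 of 3733 genes from the Cy5 end and did not pass (adjusted p = 0.109), although it did without replicate 3, at 2.40, and with the 4 arrays fitted singly under a random block for the immunoprecipitation (adjusted p from 0.00582 to 0.180 over its alternatives). With both parts averaged in, the whole window was -0.38, -0.40, -0.21 and -0.04, a mean of -0.26 ± 0.05 (adjusted p = 0.478). A narrower window of 250 bp on both sides gave -0.68 and passed.

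**Figure D2:**
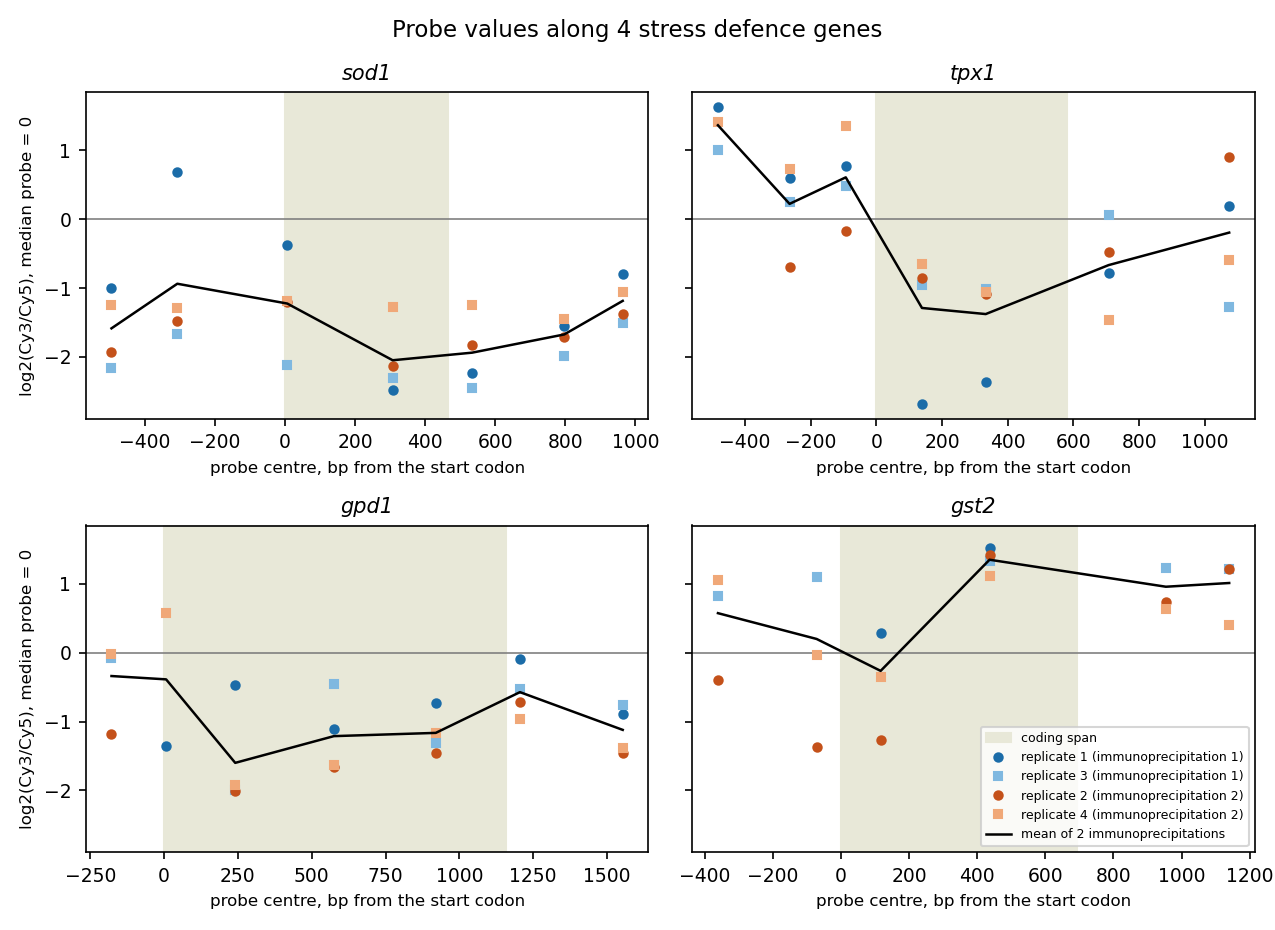
Values of single probes as log2(Cy3/Cy5) along sod1, tpx1, gpd1 and gst2, against the distance of the probe centre from the start codon in bp. Points are the 4 arrays, the black line is the mean of both immunoprecipitations and the shaded band is the coding span. The line stays below 0 over all of sod1, drops from 1.36 to -1.38 between the upstream probes and the coding span of tpx1, and reaches 1.35 inside gst2.

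The gene trr1 (SPBC3F6.03, chrII:4189967-4191234, plus strand, 2 coding exons) encodes thioredoxin reductase, which keeps thioredoxin, the partner of Tpx1, reduced with electrons from NADPH. Its window value was -0.79, -0.07, -0.56 and 0.10. The duplicates of the first immunoprecipitation were low and those of the second near 0, and the mean of -0.33 ± 0.49 did not pass (adjusted p = 0.290). Its coding span with 6 probes was at -1.01, -0.53, -0.55 and 0.01, a mean of -0.52 ± 0.36 (adjusted p = 0.167). The upstream region was at 0.63 ± 0.07 and the difference from the coding span was 1.15 ± 0.43 (adjusted p = 0.259), positive on all 4 arrays as at tpx1. Of its window's probes 1 lies in the coding span of nop14, a gene of ribosome biogenesis, which was itself at -0.13 ± 0.30 (adjusted p = 0.835).

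The genes of the glutathione S-transferases, enzymes that attach glutathione to toxic compounds, did not lie on one side of 0 as a family. The gene gst2 (SPCC965.07C, chrIII:2295375-2296067, minus strand) gave window values of 0.90, 0.05, 1.14 and 0.47 on replicates 1 to 4. Both arrays of the first immunoprecipitation were higher than both of the second, with means of 1.02 and 0.26, and on replicate 1 only the 2 coding probes of its 6 were measured. The mean of 0.64 ± 0.54 (SD, n = 2) ranked 4265 of 4280 windows and was called 1.56-fold higher in Cy3 (limma, adjusted p = 0.00453). It did not pass when any of the replicates 1 to 4 was left out (0.54 to 0.74), nor after the loess fit (0.32), nor with the coding span alone (0.67 ± 0.63, adjusted p = 0.0788). Over its 16 alternatives the adjusted p ran from 0.00435 to 0.352, and 11 of them lost the call. The gst2 window was also a dim one, brighter than only 8.07% of windows.

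Within gst2 the Cy3 values lay toward the end of the gene. The probe 116 bp past the start codon was at -0.27, and the one at 436 bp was at 1.52, 1.42, 1.33 and 1.12, close together on all 4 arrays, and was called (1.35, 2.55-fold, adjusted p = 0.0350). The probes 954 and 1140 bp past the start codon lie in the transcript after the stop codon, which the annotation extends by 758 bp. They were at 0.96 and 1.01, both missing on replicate 1 and not called. Without replicate 1, the part downstream of gst2 averaged 0.98 ± 0.34 (adjusted p = 0.184), higher than 99.2% of the 4193 genes with such a value.

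The gene gst1 (SPCC191.09C, chrIII:1719325-1720014, minus strand) had window values of 0.05, 0.55, 0.19 and 0.04, all above 0 but small, with a mean of 0.21 ± 0.12 (adjusted p = 0.595). Its coding span was at 0.67, 1.02, -0.0036 and -0.15, high on replicates 1 and 2 alone, with a mean of 0.39 ± 0.07 (adjusted p = 0.334). The gene gst3 (SPAC688.04C, chrI:3116067-3116795, minus strand) lay on the other side at -0.72, -0.43, -0.32 and 0.31, a mean of -0.29 ± 0.32 (adjusted p = 0.392). The coding span of gst3 was below 0 on each array, at -0.33, -0.70, -0.30 and -0.17, with a mean of -0.37 ± 0.08 (adjusted p = 0.358). Neither gene passed in these parts, and whether the 3 transferases differ from one another was not tested.

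The genes of the remaining peroxide-removing enzymes were not called in their windows. The gene ctt1 (SPCC757.07C, chrIII:56927-58465, minus strand) encodes catalase, and its window was at 0.70, -0.09, 0.02 and 0.46. The mean of 0.27 ± 0.12 (adjusted p = 0.438) was higher than 90.4% of windows. Its coding span, with 6 probes the best covered beside trr1, was at 0.58, -0.02, 0.03 and 0.24 (mean 0.21 ± 0.14, adjusted p = 0.676). No array was far from 0 there except replicate 1. The gene gpx1 (SPBC32F12.03C, chrII:2789071-2789547, minus strand) encodes glutathione peroxidase, and its window gave -1.22, -0.26, 0.77 and 0.57. These arrays disagreed in sign even between duplicates, and the mean was -0.03 ± 0.27 (adjusted p = 0.966). It had 1 probe in the coding span and was not tested there, and 1 probe of its window lies in the coding span of gem7, which had no value.

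Over the coding span, sod1, tpx1 and gpd1 were called higher in Cy5 among 8 genes with at least 2 probes, and none was called higher in Cy3, where gst2 came nearest at an unadjusted limma p of 0.00567. Over all 3863 coding spans 5.05% were called in the Cy5 direction and 0.699% in the Cy3 direction. Of these the 195 Cy5 calls became 59 after the loess fit and 71 without replicate 3, and the 27 Cy3 calls ran from 1 without replicate 3 to 130 with the log2 values that the authors deposited. The median of the 8 genes was -0.45, against -0.03 over all genes. In this order sod1 overlapped tpx1 and tpx1 overlapped gpd1 between immunoprecipitations, and gpd1 did not overlap trr1, the next gene. Among the genes not called, gst3 did not overlap ctt1, nor ctt1 gst1. These comparisons again use the immunoprecipitation means. On single arrays gpd1 and trr1 overlapped (-0.92 and -1.01 on replicate 1), and gst1, from -0.15 to 1.02, enclosed ctt1, from -0.02 to 0.58. With the loess fit sod1 was at -0.89 and gpd1 at -1.06, both still called, and tpx1 was lost as described. After normexp background correction sod1 was at -2.15, gpd1 at -1.69 and tpx1 at -1.40.

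**Figure D3:**
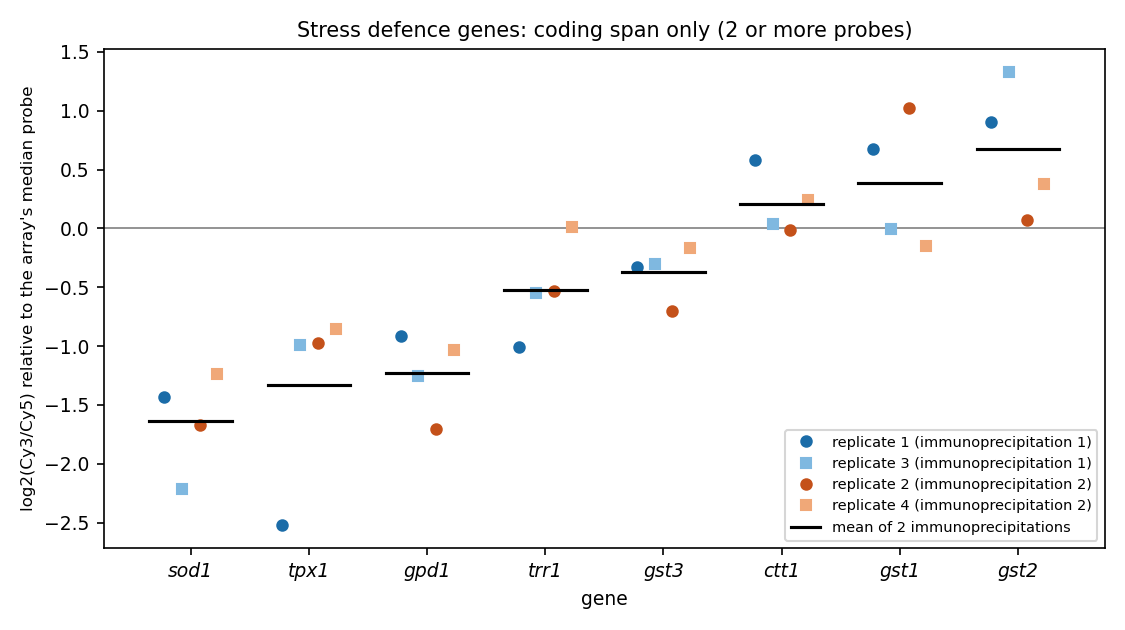
Coding span values of the 8 genes with at least 2 probes there, as log2(Cy3/Cy5) relative to the median probe. Points are the 4 arrays and bars the means of the 2 immunoprecipitations. All points of sod1, tpx1 and gpd1 lie at or below -0.86, with replicate 1 of tpx1 lowest at -2.52, and the points of gst2 reach 1.33.

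**Figure D4:**
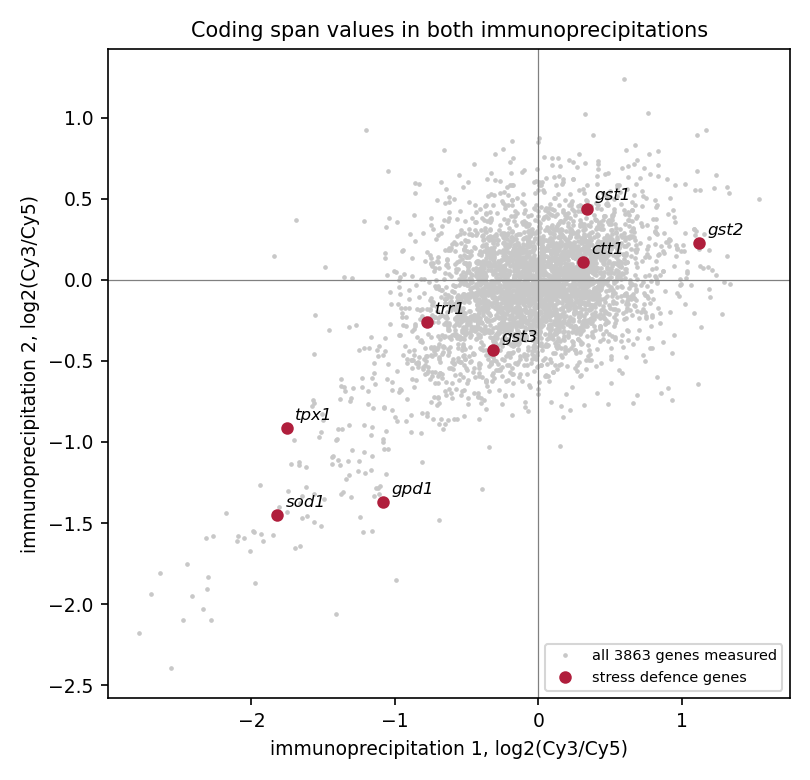
Coding span values of all 3863 genes (grey) and the 8 stress defence genes (red), with the first immunoprecipitation on the x axis and the second on the y axis, both as log2(Cy3/Cy5). The genes sod1, tpx1 and gpd1 lie in the lower left arm, at or below -0.91 in both immunoprecipitations, and gst2 lies at 1.12 in the first and 0.23 in the second.

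No upstream region of the 9 genes was called in either direction, with sod1 alone at an unadjusted limma p under 0.05 (0.00190). The upstream region of sod1 did pass after the loess fit (-0.81), after loess with GC correction (-0.84), in a fit of the 4 arrays with the immunoprecipitation as a random block (-1.26) and without replicate 1 (-1.70). Over all 4143 genes 0% were called in the Cy5 direction and 0% in the Cy3 direction, with 173 and 313 genes at an unadjusted limma p under 0.05. These counts depend on the processing, and after the loess fit 274 and 82 upstream regions were called in these directions. Upstream the 9 genes had a median of 0.21, against 0.12 over all genes, from -1.26 at sod1 to 0.63 at trr1. Downstream 1 of 8 genes, sod1, was called higher in Cy5, against 1.65% of 4193 genes in Cy5 and 0% in Cy3 (136 of them at an unadjusted limma p under 0.05). The 69 downstream regions in Cy5 and 0 in Cy3 became 610 and 62 after the loess fit. For these 8 genes the median was -0.42, against -0.08 over all genes. The difference of upstream minus coding span was called for none of 8 genes, against 0% of 3733 genes in the Cy5 direction and 0.0536% in the Cy3 direction. At an unadjusted limma p under 0.05 were 3 of the 8, tpx1, trr1 and gpd1, and 110 and 375 of all genes in these directions. Most flanks rest on 1 or 2 probes, and several upstream values changed sign with the processing. All upstream probes of gpd1 and ctt1 lie within the annotated transcript, so these values do not measure the sequence before it.

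The single probes are those averaged in the windows and coding spans, so they add no separate support for the values above. Of the 65 probes in the 9 windows, limma called 8 higher in Cy5, 4 in sod1, 2 in tpx1 and 1 each in gpd1 and gpx1, and 2 higher in Cy3, 1 each in tpx1 and gst2. Over 41171 probes 2.3% were called in the Cy5 direction and 0.216% in the Cy3 direction. After the loess fit 14 of the 65 were called higher in Cy5 and 5 in Cy3, and after normexp 4 and 1. The shares over all probes come from the fit without these steps, so these further counts have no share to be read against. The called gpx1 probe, at -298 bp from the start codon, rests on 3 arrays that disagree, at -2.58, -1.12 and 0.97. Of the 47 probes measured on all 4 arrays, 17 were negative on each and 5 positive on each. Of these 17, sod1 held 6, gpd1 5, tpx1 and trr1 2 each, and ctt1 and gst3 1 each. Of the 5, ctt1 held 3, and gst2 and trr1 1 each. Among all 27800 such probes on matched coordinates 12.9% were negative on each array and 9.52% positive on each.

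Runs of at least 3 neighbouring probes, each 1.5-fold or more away from the median, on the same side in both immunoprecipitations, overlapped 3 of the windows. The run in sod1 covered 5 probes and 1018 bp (chrI:1002470-1003487) from the start codon to beyond the stop codon, at 3.06-fold higher in Cy5. In gpd1 the run covered 3 probes and 736 bp inside the coding span (chrII:4036029-4036764), at 2.51-fold higher in Cy5. The run in gst2 covered 3 probes and 764 bp (chrIII:2294898-2295661), from inside the coding span into the annotated transcript after the stop codon, at 2.15-fold higher in Cy3. Genome-wide 202 runs lay in the Cy5 direction and 14 in the Cy3 direction. How many of all windows a run overlaps was not counted, so the count of windows has no share over all genes beside it. At a threshold of 2-fold the sod1 run alone remained, among 89 runs in Cy5 and 0 in Cy3. After the loess fit those of sod1 and gpd1 remained, among 105 and 20. With the deposited values the sod1 run alone remained, among 102 and 23.

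Further genes of the same pathways were described from a list of 48 genes of superoxide removal, thiol reduction, glutathione, NADPH supply, osmolytes and stress signalling. Of these 28 were measured over the coding span, 14 lay on coordinates that did not match the reference, 5 had fewer than 2 probes (trx1, trx2, srx1, pmp20 and mxr2) and 1, hor2, matched no name. Of the 28 measured, 4 were called higher in Cy5 and 1 in Cy3, against 5.05% and 0.699% of all coding spans, and their median was -0.12, against -0.03 over all genes. None of these 5 calls remained after the loess fit, where the 4 Cy5 genes were at -0.11 to -0.45 and the Cy3 gene at 0.29. Leaving out 1 array left at most 1 Cy5 call and no Cy3 call.

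Among the glutathione and NADPH genes, the paralogous monothiol glutaredoxins, which carry iron-sulfur clusters, lay on opposite sides. The gene grx4 was at -1.71, -0.54, -0.51 and -0.28 (mean -0.76 ± 0.50, limma, adjusted p = 0.0323), with replicate 1 lowest, and without that array it was at -0.46. In contrast grx3 was at 0.63, 0.69, 0.71 and 0.73 (mean 0.69 ± 0.03, adjusted p = 0.0398), nearly the same on each array, and the difference between them was not tested. The phosphogluconate dehydrogenase gene gnd1, which supplies NADPH, was at -0.67 ± 0.24 (adjusted p = 0.0492). The list's called osmolyte entry gpd3, at -0.72 ± 0.0027 (adjusted p = 0.0290), encodes a glyceraldehyde-3-phosphate dehydrogenase and so belongs to glycolysis by its product. Its arrays lay further apart than this SD of 2 means, at -0.48, -0.55, -0.97 and -0.89 on replicates 1 to 4. The regulator gene prr1, whose product acts with Pap1, was at -0.68 ± 0.06 (adjusted p = 0.0441). At the upper end txl1, for a thioredoxin-like protein, was at 0.57 ± 0.12 (adjusted p = 0.109) and bcp1, for a thioredoxin peroxidase, at 0.43 ± 0.24 (adjusted p = 0.272).

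By group, 2 of 8 measured glutathione and NADPH genes were called higher in Cy5 and 1 in Cy3, where the shares over all coding spans were 5.05% and 0.699%. Of 4 osmolyte and trehalose genes 1 was called, gpd3, and of 13 signalling genes 1, prr1, both higher in Cy5. The 2 thiol genes and the 1 superoxide gene measured, sod2, were not called. The signalling genes ran from -0.68 to 0.16 with a median of -0.23.

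The called genes differ in their sequence as well as in their values. The codon adaptation index, which measures how closely a gene's codons follow those of highly expressed genes, was computed with the 137 ribosomal protein genes as reference. It was 0.783 for tpx1, 0.720 for sod1, 0.716 for gpd1 and 0.684 for trr1, higher than in 96.3 to 99.1% of genes. Then came ctt1 at 0.610, gpx1 at 0.599, gst2 at 0.519, gst1 at 0.469 and gst3 at 0.423, higher than in 68.8 to 94.1% of genes. Thus the 3 genes called over the coding span have the highest indices of the 9. The genes with positive coding spans, ctt1, gst1 and gst2, lie in the middle and lower part of the order. However gst3, with the lowest index, had a negative coding span, at -0.37.

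Across all 3863 genes the index and the coding span value correlated at r = -0.53, and at -0.27 after the loess fit. These points share arrays and base composition, and genes are not replicates. The 3863 are all coding spans measured, so the reference genes with a value are among them. Their indices are high by the way the index was computed, and their part in the relation was not tested. Probe brightness moved with both, at r = -0.63 with the value and 0.42 with the index, and its part in the relation was not tested beyond the loess fit. Of the 330 measured genes with the highest indices, 128 were called higher in Cy5 (all coding spans: 5.05%), with a median coding span value of -0.52. After the loess fit the calls in Cy5 over all coding spans were 59 in place of 195. The coding span of sod1 was brighter than 96.7% and that of tpx1 brighter than 98.9% of coding spans. At the dim end lay gst2, brighter than only 3.61% of coding spans. The value of gpd1 moved least with the loess fit among the 3 called genes, from -1.23 to -1.06. By mean brightness its coding span exceeded only 14.7% of coding spans. That mean includes the probe just inside the start codon, at a log2 brightness of 9.78, where the other coding probes were at 12.5 to 13.0. How far this dim probe set the small change was not tested.

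**Figure D5:**
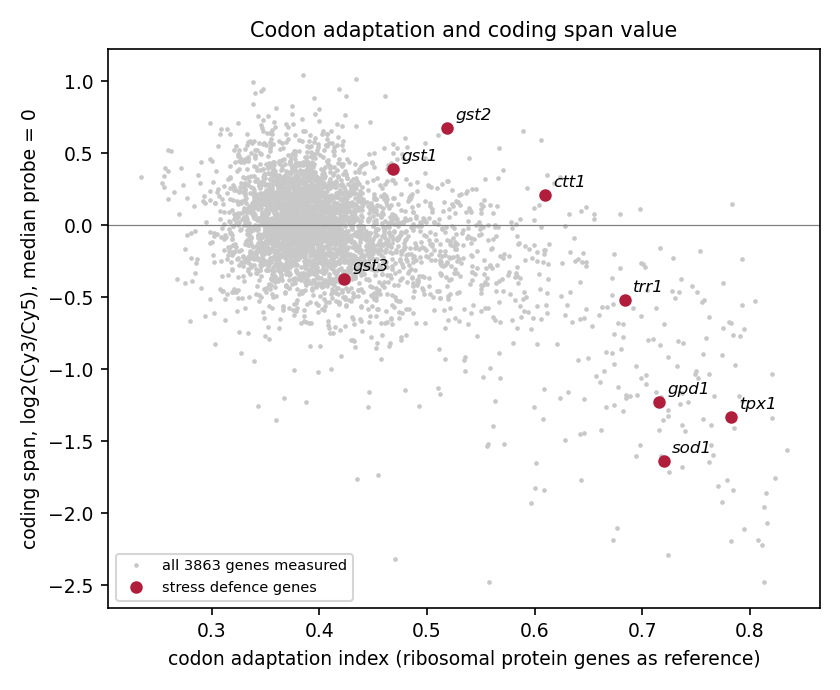
Codon adaptation index on the x axis (no unit, ribosomal protein genes as reference) and coding span value as log2(Cy3/Cy5) on the y axis for 3863 genes (grey) and 8 stress defence genes (red). The genes tpx1, sod1 and gpd1 lie at indices from 0.716 to 0.783 and values from -1.64 to -1.23, and ctt1, at 0.610, lies above 0 at 0.21.

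The genes whose windows were most like the called ones, by Euclidean distance over the 4 arrays on the log2 scale, were found among all 4280 windows. For sod1 these were ole1, an acyl-CoA desaturase gene (distance 0.494, mean -1.60), and tdh1, a glyceraldehyde-3-phosphate dehydrogenase gene (0.565, mean -1.70). For gpd1 they were the ribosomal protein genes rpl39 (0.176, mean -0.93) and rps1401 (0.295, mean -1.01). For gst2 they were SPBC27B12.07, an uncharacterised protein gene (0.387, mean 0.56), and SPCC965.14C, a cytosine deaminase gene (0.442, mean 0.57). These 6 genes were chosen for their likeness, so their values add nothing to the calls.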

How the data were processed

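The members and gene lists were chosen with earlier results of these data known. Each of 4 Agilent 4x44k arrays has a deposited scanner file whose spot intensity values are, per the file headers, mean foreground and median local background in Cy5 and Cy3. The same deposited files give the percent of a spot's pixels above background or saturated, and, as a fraction, the squared correlation of both channels over a spot's pixels. A table of log2 values deposited by the authors has an unstated scale, centring and direction. Matched by spot number, it ran as log2(Cy5/Cy3) after a loess fit (r from 0.997 to 0.999, slopes from 1.00 to 1.004, medians of 0.0082, -0.0037, -0.014 and -0.013), and it served, with its sign turned, as an alternative. Its making is not described in the labels or headers.

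The value used was log2(Cy3/Cy5), taken from foreground signals, less its median over an array's probes, with no background subtraction or loess. Flagged spots were left out. The exception was saturated spots flagged as bad whose squared pixel correlation was above 0.3, which were kept. A window or coding span needed at least 2 probes and a flank 1, and probe values were averaged. The files were in the format of GenePix and not of Agilent's own software. Per the labels, replicates 1 and 3 and replicates 2 and 4 are duplicates, which were averaged before lmFit and eBayes of limma 3.58.1 (R 4.3.3). Other steps used Python 3.11.15, and the fit was checked on simulated data. The array files name no genome build, so probe positions were compared with ASM294v3 in 126 windows of 100000 bp by brightness against GC content, and 107 matched, all 9 genes among them, to within 250 bp. Named beside the 9 genes were called, 3 lowest and 3 highest list genes, genes sharing probes with a window, and the 2 most alike genes for each called window. The difference of upstream and coding span was added after the part values were seen. The number of arrays limits the precision.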

Additional observations from a re-analysis of the deposited data

Results flagged for a closer look

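Of 31 sets of 4 arrays tested for 1 array far from the others, 2 were marked, and chance marks about 1 in 20 such sets. The 4 arrays are duplicates of 2 immunoprecipitations, so they are not 4 independent samples. The coding span of tpx1 was at -2.52 on replicate 1, with the other arrays between -0.99 and -0.86. The part downstream of ctt1 was at 1.70 on replicate 3, with the other arrays between 0.24 and 0.39.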

How the results depend on the processing

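No paired analysis was possible because the arrays form 1 group. The number of arrays and of probes per gene limits every value. The window calls of sod1 and gpd1 held under all 16 alternatives except gpd1 without replicate 3, and the window of sod1 ran from -1.98 to -1.02. Centring on the mode lowers all values of an array by 0.028 to 0.305. The cause of the changes below was not tested.

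The window of gst2 did not pass at 0.73 after normexp, 0.32 after loess, 0.49 with mode centring, 0.28 with the deposited values, 0.61 with probes well above background, 0.67 over the coding span and 0.49 with 250 bp flanks, each of which left 0 of the 9 genes higher in Cy3. The window of tpx1 passed at -1.33 over the coding span and -0.68 with 250 bp flanks, and that of trr1 at -0.33 after loess with GC correction. Leaving out 1 array gave -1.11 to -0.87 for gpd1, 0.54 to 0.74 for gst2 and -0.53 to 0.46 for gpx1, with 1 to 2 of the 9 genes higher in Cy5 and 0 to 0 higher in Cy3.

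The 291 windows higher in Cy5 became 180 after normexp, 522 after loess with GC correction and 74 (without replicate 3) to 194 without 1 array. Coding spans in Cy5, 195 at first, were 77 after loess with GC correction, and in Cy3, 27 at first, 2 with the mode. The 61 windows higher in Cy3 became 23 after normexp, 176 after loess with GC correction, 1 with the mode, 35 in the deposited table, 31 with all spots, 34 with probes above background, 27 over the coding span and 0 (without replicate 3) to 29 without 1 array. List genes higher in Cy5, 4 at first, were 1 after normexp and with all spots, 0 after loess, after loess with GC correction and in the deposited table, 2 with probe medians and 0 to 1 without 1 array. The list's 1 gene higher in Cy3, grx3, did not pass in the deposited table (0.28), where txl1 (0.52) and ptc1 did, and the count was 2 there and 0 after normexp, after both loess settings, with the mode, with all spots, with probe medians and without any 1 array.

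Signs turned for values that had not passed. Windows turned for tpx1 after loess (0.13), loess with GC correction (0.0020) and in the deposited table (0.14), and for gpx1 after normexp (0.035), loess (0.0056), in the deposited table (0.011), with 250 bp flanks (0.14) and without neighbours' probes (0.049). In the order loess, loess with GC correction and deposited table, upstream values turned for gpx1 (-0.015, -0.0019, -0.035), gst1 (-0.24, -0.11, -0.25) and gst3 (0.47, 0.42, 0.49), and downstream values for gpd1 (0.070, 0.051, 0.075) and gpx1 (0.096, 0.023, 0.12). Upstream gst1 also turned with the mode (-0.11) and all spots (-0.037), and gst3 after normexp (0.090). Without 1 array the ranges crossing 0 were, upstream, -0.31 to 0.74 for ctt1, -0.47 to 1.17 for gpx1, -0.66 to 0.74 for gst1 and -0.57 to 0.45 for gst3, downstream -0.91 to 0.36 for gpx1, and for upstream minus coding span -0.45 to 0.46 for ctt1, -1.21 to 0.52 for gst1 and -0.11 to 0.73 for gst3. Values that passed only under an alternative were sod1 upstream (after loess -0.81, loess with GC correction -0.84, random block -1.26, without replicate 1 -1.70), gst2 downstream with all spots (1.03), gst3 downstream after loess (-1.01) and in the deposited table (-1.06), gst1 over the coding span in that table (0.53), and upstream minus coding span of tpx1 with the random block (1.91) and without replicate 3 (2.40).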
